A study of Mus musculus with 12 samples.

Results

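Cyfip2 and 7 other genes of the WAVE actin regulatory complex were followed through RNA editing, mRNA level and exon usage in the frontal cortex of mice that lack the editing enzyme ADAR2. The 8 genes are Cyfip1, Cyfip2, Nckap1, Abi1, Abi2, Wasf1, Wasf2 and Wasf3, chosen by name as subunits or paralogous subunits of the complex. All 8 were among the 15191 genes of the authors' deposited gene table, they held 165 of the 156805 exon bins of the exon table, and they held 1 of the 143 sites of the editing table. The 6 knockout libraries came from male C57BL/6 mice labelled Adar2-/-/Gria2R/R and the 6 control libraries from male litter mates labelled Adar2+/+ Gria2R/R. Both genotypes thus carry the Gria2R allele, whose genomic sequence already encodes arginine at the codon that ADAR2 otherwise recodes in this AMPA receptor subunit and without which the null mice die young. No age is given in the labels. Each file gives group values and p-values from the authors rather than a value per library, so no SD per group is available and the depth per library is unknown.

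The WAVE complex joins a CYFIP protein, an NCKAP1 protein, an ABI protein, a WAVE protein (encoded by Wasf genes) and the small subunit BRK1. In its resting state the complex holds the WAVE protein inactive. Active Rac1 binds the CYFIP subunit and frees the WAVE tail, which turns on the Arp2/3 complex and starts branched actin filaments, a process used in dendritic spines and growth cones. CYFIP proteins are named for their binding to FMRP, the fragile X protein, and CYFIP1 also binds the cap-binding translation factor eIF4E. In Cyfip2 mRNA an adenosine in a lysine codon is deaminated to inosine, which is read as guanosine, so that the codon reads as glutamate.

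The coding exon that carries the edited codon is shown because it allows the edited gene to be set beside its paralog at the same place. Both sequences are coding exon 9 of 30 in the GENCODE M21 transcript with the longest coding sequence of each gene, 92 bases long, written 5′ to 3′ in the sense of the mRNA, with the lysine codon in capitals.
Cyfip2: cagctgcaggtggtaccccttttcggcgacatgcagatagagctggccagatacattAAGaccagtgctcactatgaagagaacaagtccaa
Cyfip1: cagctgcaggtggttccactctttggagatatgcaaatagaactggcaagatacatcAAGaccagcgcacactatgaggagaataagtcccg
The codon in capitals is the one known from general knowledge of Cyfip2 editing. It was not located from the deposited coordinate, which is on mm9 while these transcripts belong to GRCm38. The label K/E by itself would fit any of the 75 lysine codons of Cyfip2, 2 of which lie whole in this exon. With guanosine in place of the first adenosine the codon AAG becomes GAG, which encodes glutamate. Cyfip1 has the same AAG codon at the aligned position. The exons differed at 16 of 92 bases (82.6% identical). Of these, 14 lay in 14 of the 30 whole codons, and 0 of these 14 codons differed in the encoded amino acid. The other 2 lay in the last codon, which is split with the next exon and encodes lysine in Cyfip2 and arginine in Cyfip1. The base just before the codon is T in Cyfip2 and C in Cyfip1. Over the whole coding sequences, 87.4% of 1252 aligned codons encoded the same amino acid. The choice of adenosine by ADAR enzymes is known to depend on the neighbouring bases and on the RNA duplex around the site, but no duplex was examined here.

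Editing was compared first, since the question posed by the knockout is which recoding events depend on ADAR2. The K/E site of Cyfip2 lies on chromosome 11 at position 46086145 (mm9, the build of the submitters' processing notes). The authors' deposited table gives 79.6% of reads edited there in the control group and 12.2% in the knockout group. The fall of 67.4 percentage points had a deposited adjusted p listed as 0. Put the other way, transcripts with the genomic lysine codon made up 20.4% of reads in the control and 87.8% in the knockout, 4.31-fold more, as computed from the authors' deposited table. What remained in the knockout was 15.3% of the control level, against a median of 24.7% over the 22 sites with an amino acid change in the authors' deposited table. Editing was listed lower in the knockout at all 22 of these sites, and at 19 of them (86.4%) the fall passed an adjusted p of 0.05, as it did at 56 of all 143 sites (39.2%). A fall as such is thus the common outcome for a recoding site. How sites were called and tested, and how many reads covered them, is not given in the sources used here, and so no interval is printed. Whether the adjusted p of the editing table takes up the spread between samples or only that of read counting is not known.

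Cyfip2 was among the most highly edited recoding sites in the control and near the middle of them in the knockout. By control level it ranked 5 of 22 amino acid sites, by knockout level 11, and by the size of the fall 3, in the authors' deposited table. On the scale of the log2 odds ratio its fall of 4.74 ranked 8. By the authors' deposited table, the residual of Cyfip2 was the second lowest among the 9 sites edited at 70% or more in the control. Residuals of these 9 sites spanned 1.97% to 81.2%. That rank depends on the limit of 70%. A site just below the limit, edited at 67.2% in the control, had a lower residual of 3.64%. These ranks describe the table and carry no test between sites.

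The sites nearest to Cyfip2 in both genotypes lie in glutamate receptor genes. The Y/C site of the kainate receptor gene Grik2 (chromosome 10, position 48992582) was edited at nearly the same level in the control, 81.3%, but at 1.97% in the knockout, per the authors' deposited table. The R/G site of the AMPA receptor gene Gria4 (chromosome 9, position 4456006) was at 79.5% in the control and 23.4% without ADAR2, by the values of the authors' deposited table. These are also the sites with the next higher and the next lower control level. The R/G site of Gria2 (chromosome 3, position 80496208) was at 73.0% in the control and 23.2% without ADAR2, by the same values of the authors' deposited table. Sites with nearly the control level of Cyfip2 thus had residuals on both sides of it, and whether these residuals differ was not tested. Next larger than the Cyfip2 fall was that at I/M in Gabra3, which encodes a GABA-A receptor subunit (X chromosome, position 69690631), with 96.3% edited in the control and 19.1% without ADAR2 per the authors' deposited table. The plot of editing by genotype shows these sites in order of their fall.

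**Figure D1:**
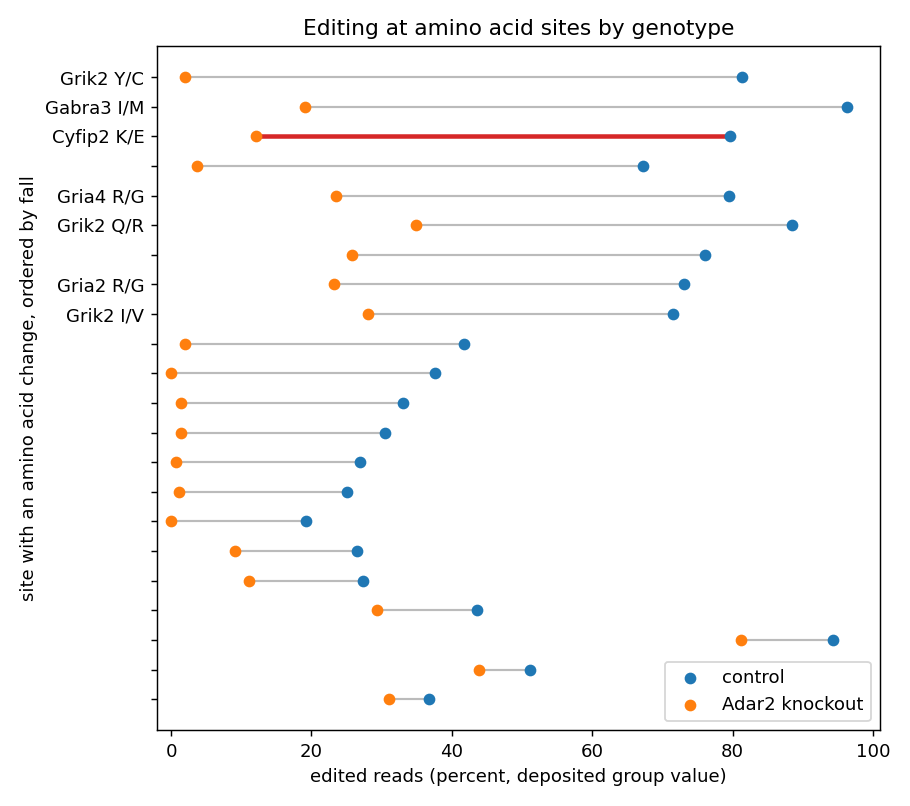
Percent of edited reads (x axis) in the control group (blue) and the Adar2 knockout group (orange) at the 22 sites with an amino acid change, 1 row per site, ordered by the size of the fall, from the authors' deposited table. Cyfip2 (red line) goes from 79.6% to 12.2%, the third longest line, and names are given for the genes compared with it in the text.

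Cyfip1 had no entry in the editing table, and neither did the other 6 genes. For 7 of the 8 genes the table therefore gives no editing value in either genotype. How the listed sites were selected is not given in the sources used here, so an absent entry says nothing about the editing of the aligned Cyfip1 codon.

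The mRNA levels were compared next. The gene table names its conditions A and B without a genotype. Ratios are given as B over A, as deposited, with no genotype attached. Adarb1, which encodes ADAR2, was 4.62-fold higher in B than in A (adjusted p = 3.06e-126, mean normalized count 4181.0 over both), per the authors' deposited table, and this was not used to name the conditions. The table's mean counts of each single condition were left unused for the same reason, so a level below is the mean over both conditions. At an adjusted p under 0.05, as given by the authors' deposited table in the form of DESeq output, 0 of the 8 genes passed, where 0.0197% of all genes did. With an unadjusted p under 0.05 there was 1 of 8, Cyfip2, where 1.86% of all genes had such a p. Their median log2 ratio was -0.06, beside -0.01 over all genes, with 3 higher and 5 lower in B.

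Cyfip2 itself had 15625 mean normalized counts over both conditions and was 1.17-fold higher in B (log2 ratio 0.23, p = 0.00223, adjusted p = 1), per the authors' deposited table. This is the condition in which Adarb1 was also higher. By its p Cyfip2 ranked 28 of 15191 genes, so 0.184% of genes had a p as small. A log2 ratio of 0.23 or more in either direction was found in 10.6% of all genes. It was less common among abundant transcripts: of 436 genes with a mean of at least 10000 counts, 5 differed as much and 1, Cyfip2, had a p as small. The rule of a high mean count was chosen after the values were seen. Of the 17 genes with an amino acid site, 2 had a p as small as that of Cyfip2, counting Cyfip2, and the median log2 ratio of the 17 was 0.01. Of these 17, 1 gene other than Cyfip2 passed an adjusted p of 0.05, where 0.0197% of all genes did.

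Its paralog Cyfip1 had 2963 mean normalized counts and a log2 ratio of -0.04 (p = 0.636, adjusted p = 1) in the authors' deposited table. The difference in log2 ratio between the paralogs could not be tested without values per library. Nckap1, which encodes the large subunit that pairs with CYFIP in the complex, had the highest count of the 8, 26129, and a log2 ratio of 0.03 (p = 0.740) in the authors' deposited table. Thus the partner that binds CYFIP directly was 2.13% higher in B, where Cyfip2 was 17.3% higher.

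The ABI subunits, adaptors that link the complex to membranes and kinases, showed small differences of opposite sign. Abi1 had 4677 mean counts (log2 ratio 0.03, p = 0.876) in the authors' deposited table. Abi2 had 9978 mean counts (log2 ratio -0.14, p = 0.151) in the authors' deposited table. Neither had an adjusted p other than 1.

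The WAVE genes, whose products carry the tail that activates Arp2/3, were all listed lower in B, and none passed. Wasf1, the WAVE gene best known from neurons, had 1338 mean counts and the largest difference of the 8 genes (log2 ratio -0.42, p = 0.226) in the authors' deposited table. Only 2.99% of all genes differed as much, yet 11.2% had a p as small. For Cyfip2, with a log2 ratio of 0.23, 10.6% differed as much and 0.184% had a p as small. Wasf2, the widely expressed WAVE gene, had 250.5 mean counts (log2 ratio -0.23, p = 0.179) in the authors' deposited table. Wasf3 had 1654 mean counts (log2 ratio -0.08, p = 0.634) in the authors' deposited table. Cyfip2 and Wasf2 had log2 ratios of the same size and opposite sign, at mean counts of 15625 and 250.5.

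**Figure D2:**
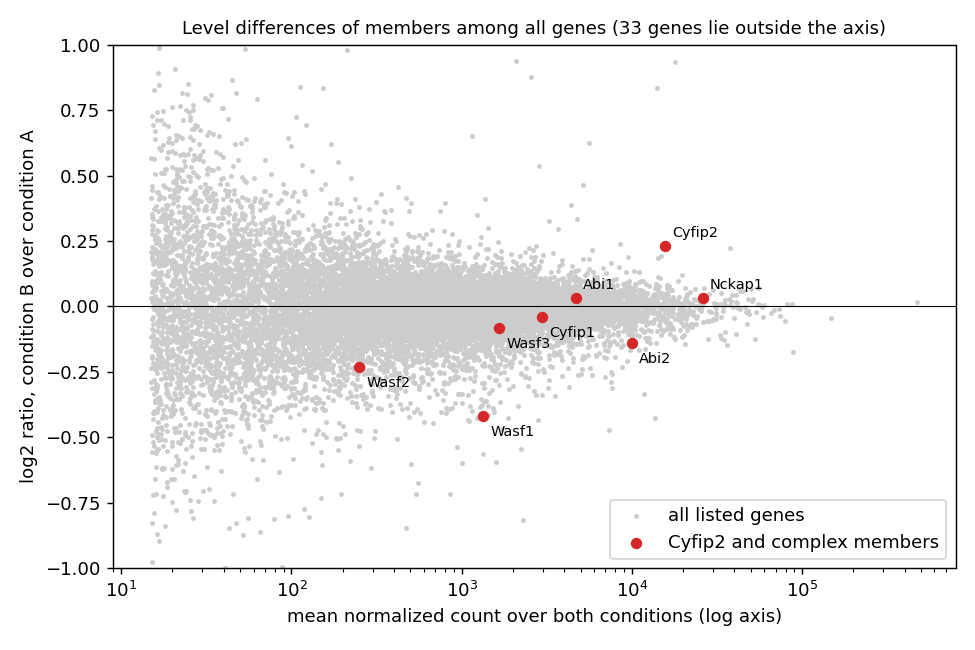
Log2 ratio of condition B over condition A (y axis) against the mean normalized count (log x axis) for all 15191 genes of the authors' deposited table (grey) and the 8 genes (red), with 33 genes outside the y axis. Cyfip2 at 0.23 lies above most genes of a like count, while Cyfip1, Abi1 and Nckap1 lie near 0.

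Levels of different genes were then compared per length, as the mean normalized count over both conditions per kilobase of merged GENCODE M21 exons. The counts were made on mm9 with a gene annotation that is not given, so the lengths counted may differ from these. Nckap1 was highest at 5264 counts per kilobase, and Cyfip2 second at 2200. Abi2 and Abi1 followed at 1168 and 1160, then Wasf1 at 468.8, Wasf3 at 318.3, Cyfip1 at 248.1 and Wasf2 at 40.0. On this scale Cyfip2 was 8.87-fold above Cyfip1. With the length of the longest coding transcript it was 5.10-fold above, and Cyfip1 then stood at 460.1 counts per kilobase, above Wasf3 at 318.3. The order of these 2 genes thus depends on the length used. Within the WAVE genes, Wasf1 made up 56.7% of the summed level per kilobase of merged exons, Wasf3 38.5% and Wasf2 4.84%. The neuronal paralogs Cyfip2 and Wasf1 were therefore the more abundant form of their subunit under both lengths.

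**Figure D3:**
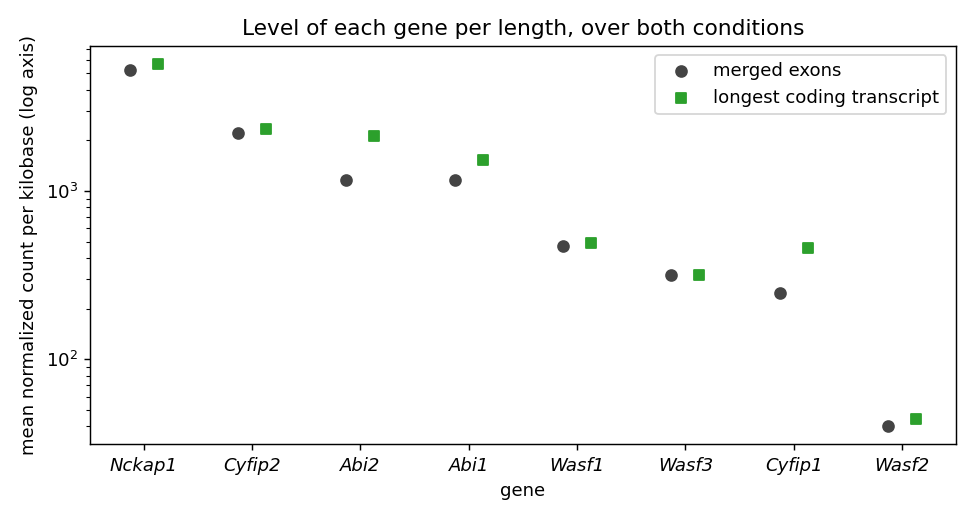
Mean normalized count per kilobase (log y axis) of each of the 8 genes over both conditions, with the length of merged exons (circles) or of the longest coding transcript (squares), from the authors' deposited table and GENCODE M21. Nckap1 and Cyfip2 lie highest under both lengths, and the circle and square of Cyfip1, at 248.1 and 460.1, lie farther apart than those of Cyfip2.

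The cell types of the tissue bear on these levels, since fewer cells of a type and less RNA per cell cannot be told apart in whole cortex. Of 36 markers in 8 lists, 34 were measured, and none passed in the authors' deposited table, where 0.0197% of all genes did. With an unadjusted p under 0.05 there was 1, where 1.86% of all genes had such a p. It was the striatal gene Ppp1r1b, at a log2 ratio of -0.30 (p = 0.00242) in the authors' deposited table. Cyfip2, with a log2 ratio of opposite sign, had nearly the same p (p = 0.00223) in the authors' deposited table. Cortical excitatory markers were present, with Slc17a7 at 17440 mean counts and Cux2 at 3620, in the authors' deposited table. The pan-neuronal markers Snap25 and Syt1 were at log2 ratios of 0.01 and -0.01 in the authors' deposited table. Of the excitatory markers 1 of 4 was higher in B, with a median of -0.13, and of the interneuron markers 0 of 6, with a median of -0.14. Astrocyte markers had 2 of 5 higher and a median of -0.01, oligodendrocyte markers 3 of 5 and 0.01, and microglia markers 1 of 5 and -0.09. Endothelial markers had 2 of 3 higher and a median of 0.01, and striatal markers 1 of 4 and -0.24. The Cyfip2 value of 0.23 is that of 1 gene and is not comparable with these list medians. The highest excitatory marker, Neurod6, was close to it at 0.22 (p = 0.0661) in the authors' deposited table, while the other excitatory markers were lower in B. The part of cell makeup in the Cyfip2 value was not tested.

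Exon usage, which describes the share of a bin within its gene, was compared between control and knockout in a table that names its genotypes. Of the 165 bins of the 8 genes, 0 had an adjusted p under 0.05 by the authors' deposited table, where 0.00738% of all bins passed. With an unadjusted p under 0.05 there was 1 (0.606%), where 1.67% of all bins had such a p, so the share is no higher than the background. The table's form is that of DEXSeq, and no other program was run. The listed differences were small, and 149 of 165 (90.3%) differed by less than 1.1-fold, against 77.9% of all bins. Bins of these genes are more deeply covered than most, with a median of 411.0 mean counts against 91.7. Among bins with 50 or more mean counts the shares were 94.1% and 86.2%.

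Cyfip2 had 37 listed bins, 21 of them higher in the control and 16 lower, and none with an unadjusted p under 0.05. The smallest p was that of E020, a thinly covered bin with 29.0 mean counts and a log2 ratio of control over Adar2 of 0.44 (p = 0.0527) in the authors' deposited table. The only other bin beyond a log2 ratio of 0.2 was E038, at 0.30 with 22.1 mean counts (p = 0.317) in the authors' deposited table. The most deeply covered bin, E002 with 4507 mean counts, had a log2 ratio of -0.003 (p = 0.881) in the authors' deposited table. Over the 34 Cyfip2 bins with a mean of at least 50 counts, log2 ratios ran from -0.19 at E011 to 0.12 at E037 in the authors' deposited table. The count-weighted mean over all 37 bins was -2.2e-04. Because each bin ratio is a share within the gene, this mean lies near 0 whatever the level of the gene, and nothing is read from it. The exon table gives bin numbers without coordinates, so the bin that holds the edited codon was not singled out.

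Cyfip1 gave a like picture, with 32 bins split into 16 higher and 16 lower. The count-weighted mean of Cyfip1, -0.01, lies near 0 for the same reason. Its smallest p was that of E019, at 23.4 mean counts and a log2 ratio of 0.39 (p = 0.105) in the authors' deposited table. For Nckap1, 38 of 39 bins differed by less than 1.1-fold, and the exception, E035, had 23.7 mean counts and a log2 ratio of 0.45 (p = 0.0632) in the authors' deposited table. In Cyfip1, Cyfip2 and Nckap1 alike, the bin with the smallest p was thus one with under 30 mean counts. The square root of the deposited dispersion had a median of 8.33% over Cyfip2 bins, 10.9% over Cyfip1 bins and 7.55% over Nckap1 bins. At the median dispersion of all bins it was 12.7%. Bins of like depth in different genes often had nearly the same dispersion. Abi2 E004 had 0.006253 at 546.5 mean counts and Cyfip2 E021 0.006254 at 546.2, while Cyfip2 E012 lay higher, 0.0315 at 548.8. The medians thus largely follow the depth of the bins. They are not read as variation between libraries measured in each gene.

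Wasf1 held the 1 bin with an unadjusted p under 0.05. Its bin E009, with 135.5 mean counts, was listed at a log2 ratio of control over Adar2 of 0.42 (p = 0.0064, adjusted p = 1) in the authors' deposited table. The other 8 Wasf1 bins lay between -0.14 and 0.21, and E010, the most deeply covered at 577.4 mean counts, was at -0.13 (p = 0.513) in the authors' deposited table. A Simes p that joins the 9 bins was 0.0576, with a value of 1 after Benjamini-Hochberg adjustment over genes.

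The remaining genes had no bin with an unadjusted p under 0.05. All 14 Abi2 bins differed by less than 1.1-fold, and the smallest p was that of E002 (log2 ratio -0.11, p = 0.116) in the authors' deposited table. Of 23 Abi1 bins 20 were within 1.1-fold, and E003, with 38.2 mean counts, was the lowest at -0.34 (p = 0.0736) in the authors' deposited table. Wasf3 had 7 of 9 bins within 1.1-fold, with the smallest p at E010 (log2 ratio 0.16, p = 0.125) in the authors' deposited table. Wasf2 had 2 listed bins, E022 at -0.19 (p = 0.317) and E023 at 0.20 (p = 0.143), in the authors' deposited table, and its bin numbers run to 23. Of its bin numbers 21 are thus not described here.

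**Figure D4:**
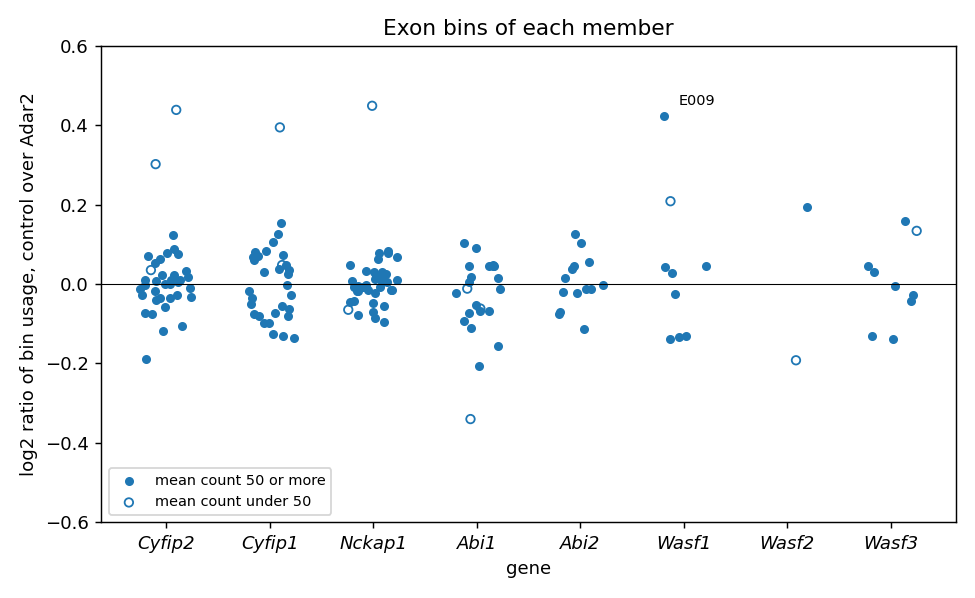
Log2 ratio of bin usage, control over Adar2 (y axis), for the 165 exon bins of the 8 genes, 1 point per bin spread sideways at random, from the authors' deposited table. Filled points have a mean count of 50 or more and open points fewer, and the farthest points of Cyfip2, Cyfip1 and Nckap1 are open, while E009 of Wasf1 is filled.

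Genes around the complex were compared through 12 lists of 102 genes in all, and all 102 were measured. Of these, 0 passed at an adjusted p under 0.05 and 0 had an unadjusted p under 0.05 by the authors' deposited table, where 0.0197% and 1.86% of all genes did. Of the 102, 37 were higher and 65 lower in B, with a median log2 ratio of -0.03 beside -0.01 over all genes. A difference of less than 1.1-fold was found for 84.3% of them, against 78.1% of all genes. No list member was as far above 0 as Cyfip2. Below 0, however, Wipf3 (-0.72), Wipf2 (-0.29), Wipf1 (-0.29) and Wasl (-0.28) lay farther from 0 than Cyfip2 in the authors' deposited table.

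The other subunits of the complex were all listed slightly lower in B. Brk1, the smallest subunit, listed under its older name 6720456B07Rik, was at a log2 ratio of -0.02 (p = 0.715) in the authors' deposited table. Nckap1l, the form of blood cells and microglia, was at -0.06 (p = 0.376) and Abi3 at -0.10 (p = 0.796) in the authors' deposited table.

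Downstream of the complex, 5 of 10 Arp2/3 subunit genes were higher and 5 lower in B, with a median of 0.01. Arpc3 stood at -0.07 (p = 0.321) and Actr2, an actin-related subunit, at 0.07 (p = 0.387) in the authors' deposited table. Among inhibitors of Arp2/3 and its branches 4 of 7 were higher, all within 0.04 of 0, with Gmfb at -0.03 (p = 0.578) and Coro1b at -0.02 (p = 0.751) in the authors' deposited table. Of 20 genes of actin and its turnover 17 were lower in B, with a median of -0.04, and none passed. The cofilin phosphatase gene Ssh1 was at -0.19 (p = 0.0966) and Vasp, which lengthens filaments, at -0.21 (p = 0.141) in the authors' deposited table.

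Upstream, 5 of 8 small GTPase genes were higher in B, with a median of 0.02, Rhog at 0.13 (p = 0.591) and Rhoa at -0.04 (p = 0.607) in the authors' deposited table. Of 15 Rac exchange factors, which load Rac with GTP, 11 were lower, with a median of -0.04, Dock4 at -0.09 (p = 0.392) and Arhgef6 at -0.21 (p = 0.430) in the authors' deposited table. Of 6 Rac GTPase activating proteins, which switch Rac off, 5 were lower, with a median of -0.12, Abr at -0.17 (p = 0.128) and Bcr at -0.15 (p = 0.187) in the authors' deposited table. Among 7 adaptors and kinases of WAVE 5 were lower, with a median of -0.04, Abl2 at 0.08 (p = 0.219) and Nckipsd at -0.09 (p = 0.462) in the authors' deposited table.

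The list farthest from 0 was that of other nucleation promoting factors together with the WASP-interacting partners Wipf1, Wipf2 and Wipf3. Of this list 5 of 8 were lower in B, with a median of -0.20 and no member past the threshold. The median joins factors and partners. Wipf1 and Wipf2 were both at -0.29. Among the factors Jmy was at -0.12, Was at 0.06, Cttn at 0.07 and Whamm at 0.08. Wipf3, a WASP-interacting protein gene, was at -0.72 (p = 0.0836), the smallest p of the 102, and Wasl, which encodes N-WASP, at -0.28 (p = 0.0989), in the authors' deposited table. The translation partners of CYFIP and FMRP had 3 of 9 higher and a median of -0.04, with Eif4g3 at -0.18 (p = 0.175) and Fmr1 at 0.10 (p = 0.209) in the authors' deposited table.

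The chromosomal neighbours of Cyfip2 had 5 of 6 genes higher in B, with a median of 0.09, and none passed. Adam19 was at 0.12 (p = 0.143) and Thg1l at 0.12 (p = 0.430) in the authors' deposited table. Fndc9, which lies within the span of Cyfip2, had a mean count of 29.1, against 15625 for Cyfip2, and a log2 ratio of 0.01 in the authors' deposited table, and whether reads were counted by strand is not known. The neighbours of Cyfip1 were at 0.06 for Nipa2 (p = 0.568), 0.06 for Nipa1 (p = 0.624) and -0.02 for Tubgcp5 (p = 0.792) in the authors' deposited table. The plot of the 12 lists sets these genes beside the Cyfip2 value.

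**Figure D5:**
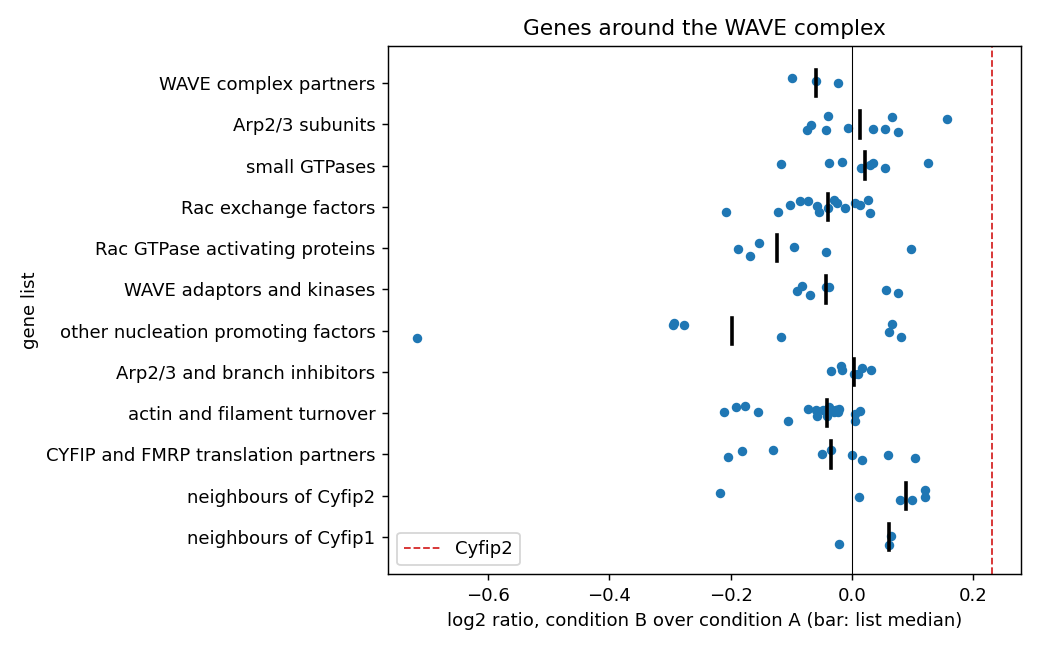
Log2 ratio of condition B over condition A (x axis) for the 102 genes of 12 lists around the WAVE complex (y axis), 1 point per gene with a bar at the list median, from the authors' deposited table. The dashed line marks Cyfip2 at 0.23, to the right of every point, and Wipf3 at -0.72 is the farthest point to the left.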

How the data were processed

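RNA of 12 frontal cortex samples was extracted with Trizol and made into stranded libraries after ribosomal RNA removal, per the labels. Reads were processed, per the submitters' processing notes, with SAMtools 01.19.0, DESeq, HTSeq, TopHat2 2.0.6 and Bowtie2 2.02.0 on mm9, and these notes give no roles. The authors deposited a gene table with mean normalized counts, a signal, and the ratio, log2 ratio and p-value of condition B over A. Its 2 columns of condition means were not used, since no label ties them to a genotype. Their exon bin table gives, per the file headers, a mean normalized count, a log2 ratio, a p-value and a score for spread, the dispersion. Their editing table gives the percent of edited reads per genotype, as deposited, with an adjusted p-value and, as another column, the mm9 position. Depth per library and coverage per site are unknown. The labels give 6 cortices per genotype and do not state that each is a separate mouse, so the p-values of the gene and exon tables measure at most the spread between these samples. The test behind the editing table is not given in the sources used here.

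Planned tests on values per library could not be run, so the deposited p-values, taken over whole tables, were used at an adjusted p under 0.05. Benjamini-Hochberg and Simes code was tested on simulated data. Python 3.11.15, pandas 2.3.3 and Biopython 1.88 were used. Bins were matched to symbols by Ensembl ID (8 of 8 genes), Brk1, Arpin and Fndc9 by older names. Named were the 8 genes, Adarb1, the smallest-p bins, the 2 smallest-p members of each list and the amino acid sites nearest to Cyfip2 (1 site under this rule, and 1 cell type marker of the lists, are not reported here). Other bins, cell type markers and Fndc9 were singled out after their values were seen. Members and lists were chosen with earlier results of these data known.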

Additional observations from a re-analysis of the deposited data

How the results depend on the processing

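The adjusted p of the Cyfip2 site is listed as 0 and its fall was 67.4 points. Adjusted p thresholds of 0.01 and 0.1, a minimum difference of 10 points and Bonferroni over the listed sites therefore could not change its call. The place of the Cyfip2 site by size of fall was 3 with and without the Sfi1 sites and 8 by log2 odds ratio. Only Grik2 Y/C and Gabra3 I/M had larger falls, so leaving out Sfi1 could not change the place of 3. The count of member genes that passed was 0 with renewed Benjamini-Hochberg or Bonferroni adjustment over listed genes, a threshold of 0.1 or a mean count of at least 100, and 1, Cyfip2, at an unadjusted p under 0.05. The count of member bins was 0 under the same kinds of alternative, with at least 50 mean counts and by a Simes p per gene, and 1, Wasf1 E009, at an unadjusted p under 0.05. The deposited adjusted p-values of member genes and bins lay far above either threshold. The threshold of 0.1 and Bonferroni thus could not change either count of 0. The limit of 100 mean counts removed none of the 8 genes, since the lowest, Wasf2, had 250.5. The level of Cyfip2 over Cyfip1 per length was 8.87 with merged exons and 5.10 with the longest coding transcript. These lengths were chosen after the data were seen, because lengths per bin, as planned, needed coordinates that the exon table lacks. Less the median of all genes, the Cyfip2 log2 ratio was 0.24. No paired analysis was possible because each deposited value covers a whole group, and leaving out libraries could not be run for the same reason.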

Other observations

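Bins that follow each other in number within a gene often shared a sign. In Cyfip2 the first 7 listed bins, E002 to E008, were all lower in the control, between -0.12 and -0.003 on the log2 scale, with a smallest p of 0.121 in the authors' deposited table. In Nckap1 the 7 bins from E004 to E010 were all higher in the control, between 0.01 and 0.08, with a smallest p of 0.214 in the authors' deposited table. In Cyfip1 the 6 bins from E007 to E012 were higher, between 0.04 and 0.13, in the authors' deposited table. These runs were noticed after the values were seen, bins of a gene share libraries and reads, and the runs were not tested.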
